A study of Populus x canadensis with 4 samples.

Results

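Sequences named for the microRNA families miR478 and miR481 of poplar made up 14 of the 529 distinct sequences in the leaf small RNA table, 12 for miR481 and 2 for miR478. They were chosen by name alone, as those with exactly that family number after miR or MIR, whatever the arm or suffix. Their levels were already known when the families were picked, so all values below are descriptions. Leaves came from Populus × euramericana 'Neva', a hybrid poplar whose organism label is Populus x canadensis. Plants spent 3 days in para-hydroxybenzoic acid, a phenolic compound, at 2, 4 or 8 mM or without it at 0 mM, which gave 4 libraries. All plants were rooted cuttings of this cultivar in water culture and nutrient solution. RNA of equally treated plants was mixed, so that every dose is 1 library, the spread between plants is unknown and no difference has a replicate check. How many plants were mixed is not given in the sources used here.

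MicroRNAs of plants are cut from hairpin precursors by DCL1, are mostly 21 or 22 nt long, and guide Argonaute proteins, AGO1 above all, to messenger RNAs with matching sites. In Arabidopsis, DCL3 cuts a longer class of 24 nt from double-stranded RNA of transposons and other repeats. That class is loaded into AGO4 and its relatives and directs DNA methylation, and AGO4 is known to favour a 5′ A, while AGO1 favours a 5′ U. No target is stated here for miR478 or miR481. A name such as ptc-MIR481b-p3 stands for an arm of the Populus trichocarpa hairpin MIR481b, and a suffix such as _1ss23AG is read here as a base that differs from the listed hairpin.

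The miR481 sequences were of unlike kinds, and 11 of the 12 were 24 nt long. The sequences printed here are those of the deposited table, written with T for U, and the capitals mark the seed, bases 2 to 8. The first group, 3 sequences of 24 nt, held the largest share of miR481 reads in the treated libraries:

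ptc-MIR481c-p5_1ss23AG: cTTAAGCTtttgggttgagatggt

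ptc-MIR481b-p3: cTTAAGCTattgggttgagatggt

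ptc-MIR481b-p5_1ss4CT: aAGTTATTgggttgagatggttct

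The first pair share the seed TTAAGCT and are identical at 23 of 24 bases. Counted from the 5′ end they differ by T9A. ptc-MIR481b-p5_1ss4CT starts 3 bases further in and is identical to ptc-MIR481b-p3 at 20 of the 21 bases where they overlap, on the same strand, although the names place them on opposite arms of 1 hairpin. Near-identical sequences thus carry opposite arm names, and reads of such close copies cannot be told apart with certainty by counting.

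A further 2 sequences stood alone, the only 21 nt form of miR481 and a 24 nt form that began with T:

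ptc-MIR481c-p3_2ss19CT21TC: aGTTCGAAtctcaccatctcc

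ptc-MIR481d-p5: tTCTTTGAcatggtatcagagcct

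The 21 nt form holds ACCATCTC, which is complementary to 8 bases in a row of each sequence of the first group. It shared no run of 10 or more bases with any other miR481 sequence on either strand.

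The last 2 miR481 groups were scarcer in the treated libraries. In 5 sequences of 24 nt the run GCCTGTGCAAGT recurred at different offsets, and they are shown by the most abundant one and by 2 that overlap over 16 identical bases. In 2 sequences named for MIR481a the bases differed by T3A and G15A:

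ptc-MIR481d-p3_1ss9AG: gTGGGCCTgtgcaagtttcaagcc

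ptc-MIR481c-p3_1ss1GA: aTGAGCCTgtgcaagtttcaagcc

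ptc-MIR481c-p5_1ss9GA: aAGGTAATatgagcctgtgcaagt

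ptc-MIR481a-p5_2ss3AT23TC: aATTCATAtcctaggacctcacct

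Within the 5 sequences, ptc-MIR481d-p3_1ss9AG and ptc-MIR481c-p3_1ss1GA differ by G1A and G4A. One sequence of that group was listed under both arms of MIR481c, as ptc-MIR481c-p3_2ss1GA20AG and ptc-MIR481c-p5_2ss1GA20AG.

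The 2 miR478 sequences were 21 and 22 nt long and shared an 11-base run, TTTTTAGGGAC, set at different distances from the 5′ end:

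ptc-MIR478n-p5: tAATTTTTagggactgatgtc

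ptc-MIR478h-p3: cTTTTTAGggacaaacgtcaat

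No seed of a miR478 or miR481 sequence occurred as the seed of any sequence outside these families in the table.

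Reads assigned to all sequences of the table came to 2640653, 4998878, 6369127 and 5310499 at 0, 2, 4 and 8 mM, and 409, 438, 445 and 441 sequences were detected. Levels are the authors' normalized read counts, the raw counts times 1 factor per library, without division by length. A listed 0, taken as at most 3 reads, allows a level of up to 4.07, 2.96, 2.50 and 2.67. No nonzero count of these 14 sequences was under 5 reads. Folds carry exact 95% conditional binomial intervals and shares carry Wilson 95% intervals. Both cover counting error only, and PCR copies without molecular identifiers are not independent molecules. Families often regarded as fragments of other RNAs (miR6300, miR8175, miR5368, miR2916 and miR6478) held 1.96%, 0.725%, 1.26% and 1.17% of reads in the 4 libraries, highest in the untreated one. The part of this, and of the smaller size of that library, in the differences below was not tested.

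miR481 was scarce in untreated leaves and several times more abundant after treatment, with its highest level at 4 mM. The 12 sequences together had 113, 816, 966 and 343 normalized read counts at 0, 2, 4 and 8 mM, on 83, 828, 1160 and 385 reads. The treated libraries all lay above the untreated one, and 8 mM lay between it and the other doses. Against 0 mM the total was 7.25-fold (5.78 to 9.20), 8.58-fold (6.87 to 10.9) and 3.05-fold (2.40 to 3.91) higher at 2, 4 and 8 mM. All 3 ratios share the untreated library. Even at 4 mM, miR481 held only 0.0182% of the table's reads (0.0172 to 0.0193), against 0.00314% (0.00254 to 0.00390) at 0 mM.

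Libraries set to equal table totals, which lower every log2 ratio to 0 mM by 0.46, 0.57 and 0.40, gave 5.27-fold, 5.79-fold and 2.31-fold. The step between 4 and 2 mM was small, 1.18-fold higher at 4 mM (1.08 to 1.30), and 1.10-fold (1.005 to 1.20) with equal totals. miR481 was 2.82-fold lower at 8 mM than at 4 mM (2.51 to 3.17).

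**Figure D1:**
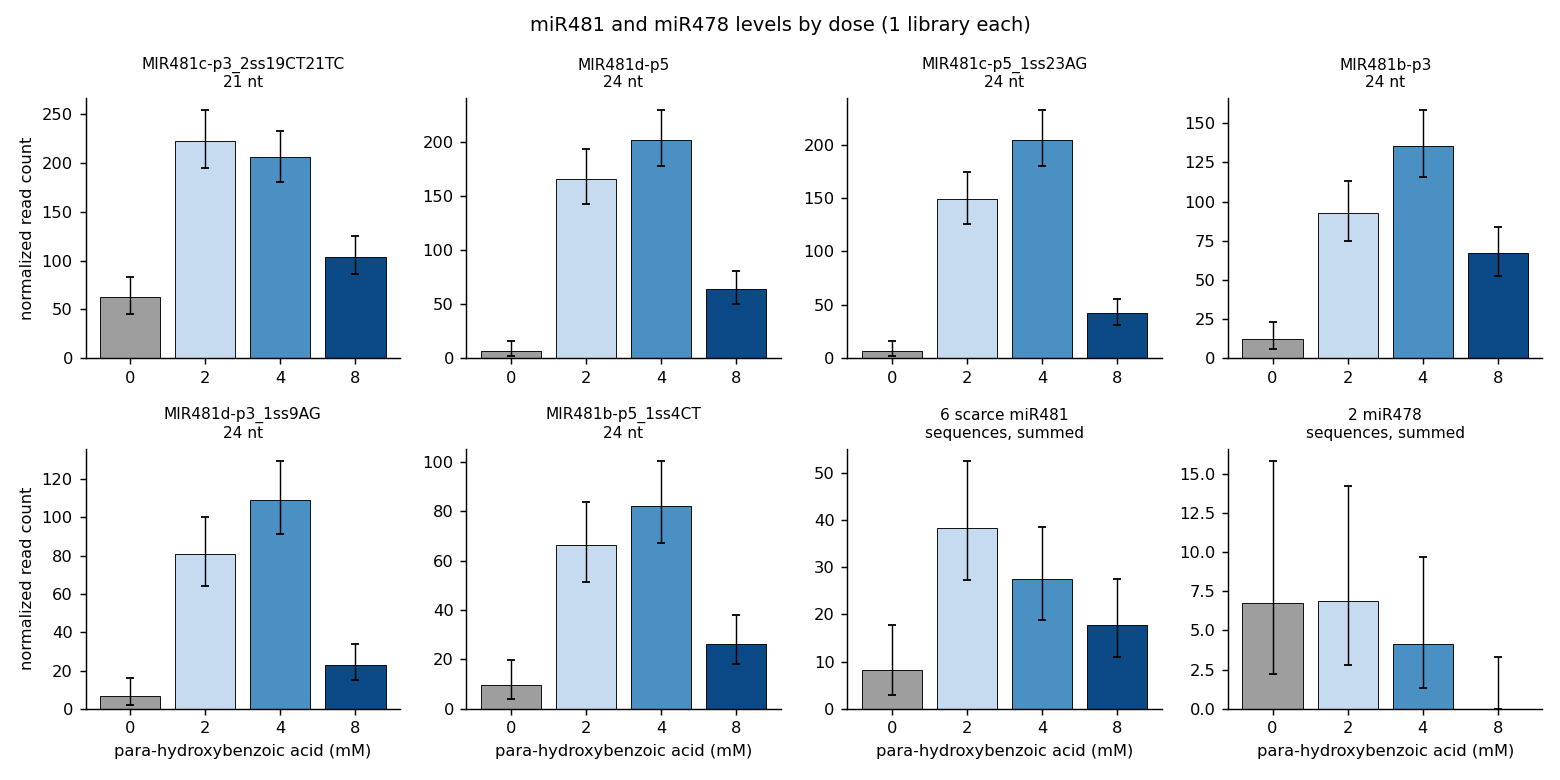
Normalized read count (y axis, from 0) at each dose of para-hydroxybenzoic acid (x axis, mM) for the 6 more abundant miR481 sequences, the sum of the other 6 and the sum of the 2 miR478 sequences, with 1 library per bar and exact 95% Poisson intervals for counting error. The 5 panels of more abundant 24 nt sequences are lowest at 0 mM and highest at 4 mM, and the 21 nt panel is highest at 2 mM. Intervals at 2 and 4 mM overlap for the 21 nt form, ptc-MIR481d-p5, ptc-MIR481d-p3_1ss9AG and ptc-MIR481b-p5_1ss4CT. The miR478 intervals at 0, 2 and 4 mM overlap.

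The first group carried the largest part of the difference in level. ptc-MIR481c-p5_1ss23AG had 6.78, 149, 204 and 41.9 normalized read counts at 0, 2, 4 and 8 mM, and only 5 reads lay behind the untreated value. It was 21.98-fold (9.20 to 68.6), 30.2-fold (12.8 to 93.9) and 6.18-fold (2.47 to 19.9) higher at 2, 4 and 8 mM. Its near copy ptc-MIR481b-p3 stood at 12.2, 92.7, 135 and 66.8 normalized read counts. That sequence was 7.59-fold (3.83 to 17.1), 11.1-fold (5.72 to 24.8) and 5.48-fold (2.74 to 12.4) higher at 2, 4 and 8 mM. The intervals of these near copies overlap at each dose, so the data do not separate their folds over 0 mM.

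Between 8 and 4 mM the listed values of the near copies were further apart. ptc-MIR481c-p5_1ss23AG was 4.88-fold lower at 8 mM than at 4 mM (3.57 to 6.83) and ptc-MIR481b-p3 only 2.02-fold lower (1.54 to 2.71), with counting intervals that do not overlap. Both sequences hold fractional counts at 4 mM, and an unknown division of reads between such close copies is not covered by these intervals. The shifted form ptc-MIR481b-p5_1ss4CT had 9.49, 66.2, 82.0 and 26.3 normalized read counts at 0, 2, 4 and 8 mM. It was 6.97-fold (3.20 to 17.97), 8.64-fold (4.06 to 22.2) and 2.77-fold (1.21 to 7.60) higher at 2, 4 and 8 mM. The 3 sequences together came to 28.5, 308, 422 and 135 normalized read counts, lowest without the acid and highest at 4 mM as each of them was. For ptc-MIR481b-p5_1ss4CT counting error does not separate 4 from 2 mM, a ratio of 1.24 (0.906 to 1.73).

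ptc-MIR481d-p5 had the largest 2 mM fold of the 6 more abundant sequences. It had 6.78, 166, 202 and 63.7 normalized read counts at 0, 2, 4 and 8 mM, again from 5 untreated reads, and was 24.5-fold (10.3 to 76.6), 29.8-fold (12.6 to 92.7) and 9.40-fold (3.87 to 30.0) higher at 2, 4 and 8 mM. Its levels at 4 and 2 mM differed by less than counting error, a ratio of 1.21 (0.994 to 1.49). ptc-MIR481d-p3_1ss9AG, named for the other arm of the same hairpin, stood at 6.78, 80.8, 109 and 22.7 normalized read counts. It was 11.9-fold (4.91 to 37.7), 16.1-fold (6.72 to 50.4) and 3.35-fold (1.29 to 11.4) higher at the 3 doses. Both were lowest at 0 mM and lower at 8 mM than at 4 mM, by 3.17-fold (2.42 to 4.16) and 4.80-fold (3.07 to 7.47).

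The 21 nt form had smaller folds than the 24 nt forms summed. ptc-MIR481c-p3_2ss19CT21TC had 62.4, 223, 206 and 104 normalized read counts at 0, 2, 4 and 8 mM, on 46 reads at 0 mM. It was 3.57-fold (2.59 to 5.02), 3.30-fold (2.40 to 4.62) and 1.66-fold (1.18 to 2.41) higher at 2, 4 and 8 mM. Its levels at 4 and 2 mM differed by less than counting error, a ratio of 0.923 (0.768 to 1.11). The 11 sequences of 24 nt together stood at 50.2, 593, 760 and 239 normalized read counts. They were 11.8-fold (8.48 to 17.0), 15.2-fold (10.9 to 21.7) and 4.77-fold (3.38 to 6.93) higher at 2, 4 and 8 mM, above the interval of the 21 nt form at each dose. This holds for the sum and not for each 24 nt form, since the intervals of ptc-MIR481b-p5_1ss4CT overlap those of the 21 nt form at all 3 doses. Leaving out the 21 nt form thus moves the 4 mM fold of the family to 15.2, against 8.58 for all 12 sequences.

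Shares of the miR481 reads need no scaling between libraries. The 21 nt form held 55.4% of miR481 reads in untreated leaves (44.7 to 65.6). Its share was 27.3% at 2 mM (24.4 to 30.4), 21.3% at 4 mM (19.03 to 23.7) and 30.3% with 8 mM (26.01 to 35.2). The first group held 25.3% (17.2 to 35.6), 37.7% (34.4 to 41.03), 43.7% (40.9 to 46.6) and 39.4% (34.7 to 44.4). ptc-MIR481d-p5 held 6.02% at 0 mM (2.60 to 13.3) and between 18.6% and 20.9% at the other doses. The group of ptc-MIR481d-p3_1ss9AG kept a similar share, between 10.5% and 13.3%, in all 4 libraries.

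**Figure D2:**
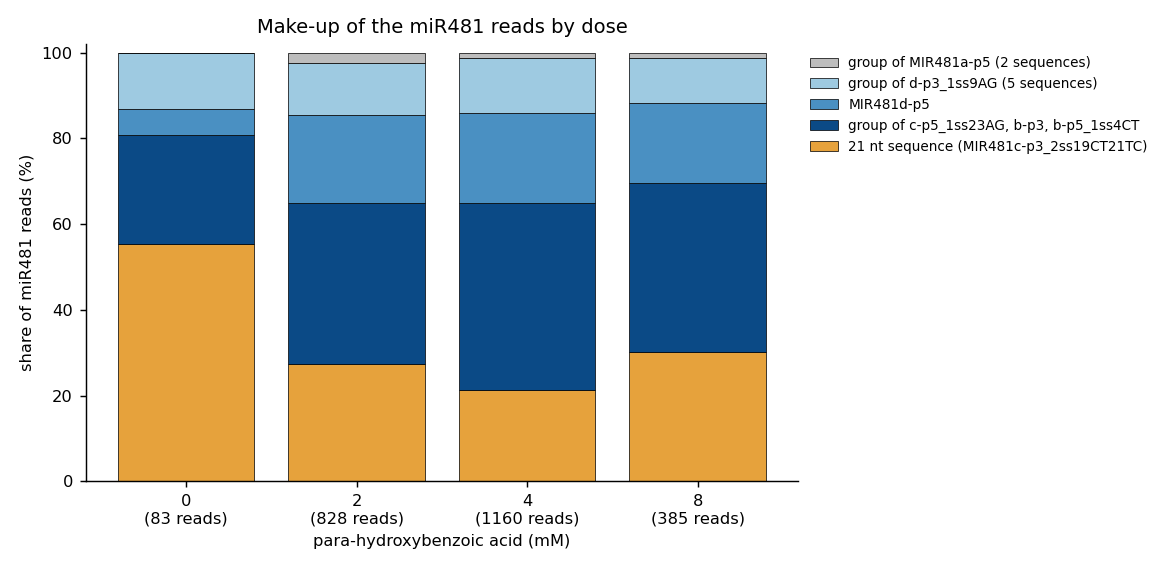
Share of miR481 reads (y axis, %) held by each group of related sequences at each dose (x axis, mM, with the reads of the family in brackets), stacked, 1 library per bar. The 21 nt form at the foot of each bar holds 55.4% at 0 mM and 27.3%, 21.3% and 30.3% at 2, 4 and 8 mM.

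Arm names and first bases followed from this make-up. Sequences named for a 5′ arm alone held 27.7% of miR481 reads at 0 mM (19.2 to 38.2) and 49.9%, 52.5% and 41.04% at 2, 4 and 8 mM. Reads that began with A, 71.1% at 0 mM (60.6 to 79.7), made up 40.1%, 32.6% and 43.1% at 2, 4 and 8 mM, since the 21 nt form begins with A. Of the 12 sequences, 8 began with A, 2 with C, 1 with G and 1 with T. The reads were spread otherwise, and most of those with a first A were the 21 nt form, 247 of 378.5 at 4 mM. A first C, found in 24 nt forms only, held 16.9%, 29.6%, 35.2% and 31.7% of miR481 reads at 0, 2, 4 and 8 mM. For a first G these shares were 6.02%, 9.90%, 11.3% and 6.62%. A first T, found in 94.7%, 97.2%, 97.3% and 97.2% of all reads of the table, was found in 6.02%, 20.4%, 20.9% and 18.6% of miR481 reads, all of them ptc-MIR481d-p5.

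The other 6 miR481 sequences were near the limit of detection. Together they had 8.14, 38.4, 27.5 and 17.8 normalized read counts at 0, 2, 4 and 8 mM, with their highest listed level at 2 mM. Counting error does not separate that level from the one at 4 mM, a ratio of 4 to 2 mM of 0.715 (0.436 to 1.17). Of them 5 were listed at 0 reads in untreated leaves. ptc-MIR481a-p5_2ss3AT23TC had 0, 13, 10 and 5 reads at 0, 2, 4 and 8 mM and was at least 3.15-fold higher at 2 mM, with 3 counts put in place of the untreated 0 in that library. This bound leaves out counting error, and the exact interval of the ratio starts at 2.22. The sequence listed under both arms of MIR481c had 0, 13, 11 and 5 reads and the same bound at 2 mM. ptc-MIR481c-p5_1ss3GA differed, with 6, 6, 7 and 0 reads. ptc-MIR481c-p5_1ss9GA and ptc-MIR481c-p3_1ss1GA were listed at 5 reads at 8 mM and at 0 elsewhere, too few to give an order.

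miR478 was barely detected. ptc-MIR478h-p3 had 5 reads at 0 mM and was listed at 0 at 2, 4 and 8 mM. ptc-MIR478n-p5 had 0, 7, 5 and 0 reads at 0, 2, 4 and 8 mM. No library held both forms. Together they stood at 6.78, 6.90, 4.16 and 0 normalized read counts, and the intervals of their ratios to 0 mM, 0.278 to 4.07 at 2 mM and 0.141 to 2.67 at 4 mM, hold 1. At 8 mM the listed 0, replaced by 3 counts, put the total at least 2.54-fold lower than at 0 mM. That bound rests on 5 reads and leaves out their counting error. The exact interval of the ratio to 0 mM runs up to 0.717.

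Set against each other within a library, which needs no scaling, miR481 outnumbered miR478 by a factor of 16.6 at 0 mM (exact interval 6.84 to 52.5). The factor was 118 at 2 mM (57.2 to 295) and 232 with 4 mM (99.1 to 716). At 8 mM, where miR478 was listed at 0, the ratio was at least 128 with 3 counts put in place of that 0. This bound leaves out counting error, and the exact interval at 8 mM starts at 104. The interval at 0 mM lies below those at 2 and 4 mM.

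To place the family among all sequences, each whose mean over the 4 libraries reached 10 normalized read counts was compared on log2(value + 1), a scale that shrinks the differences of low values. Of 529 sequences 350 passed, among them 6 of the 12 miR481 sequences and neither of miR478. Of these 6, 4 were under 10 at 0 mM and passed through their treated levels. The counts, medians and ranks of miR481 that follow are thus no evidence of a direction. At 2 mM all 6 were at least 2-fold higher than at 0 mM and 0 lower, where 20.9% of all sequences were higher and 23.7% lower. At 4 mM again all 6 were higher and 0 lower, with 18.9% and 25.7% of all sequences. At 8 mM 5 were higher and 0 lower, with 14.9% and 21.4%, and the 21 nt form lay between. Equal table totals left these member counts as they were, while the split of all 350 sequences went to 43 higher and 115 lower at 2 mM, 36 and 128 at 4 mM, and 35 and 111 at 8 mM.

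The median log2 ratio of these 6 was 3.11, 3.60 and 1.98 at 2, 4 and 8 mM, beside 0.04, 0.03 and -0.02 over all 350 sequences. Ranked from the highest ratio at 4 mM, ptc-MIR481c-p5_1ss23AG was 4 of 350, ptc-MIR481d-p5 was 5 and the 21 nt form was 33. Between 8 and 4 mM, a comparison added after the levels were seen, 5 of the 6 were at least 2-fold lower, where 7.43% of all sequences were. With equal table totals 4 of them were, as were 18 of all 350 sequences.

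**Figure D3:**
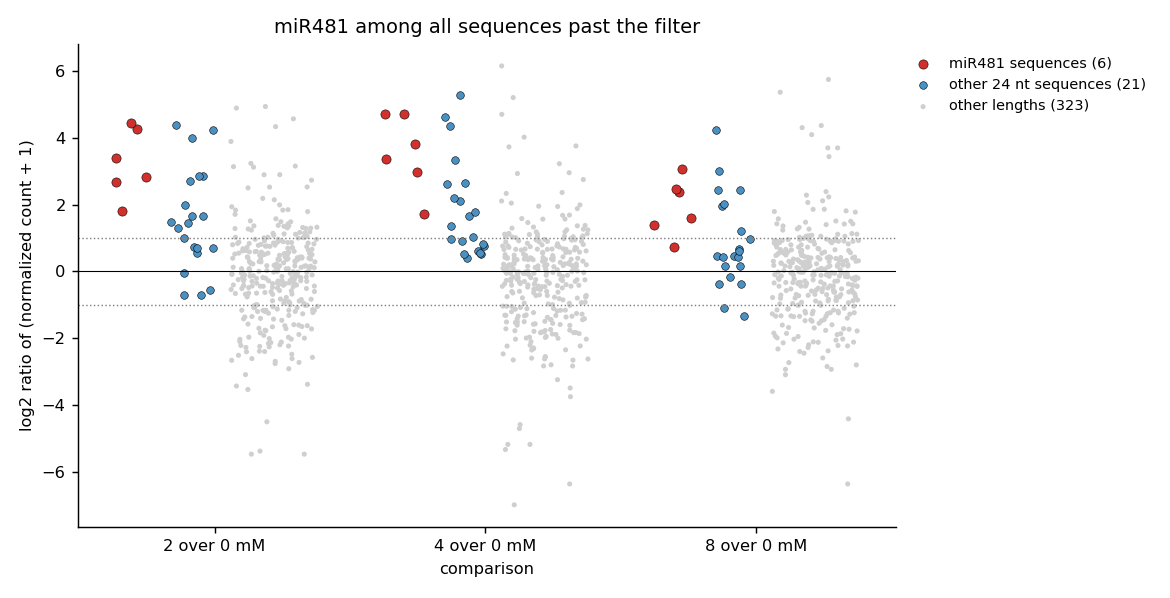
Log2 ratio of (normalized count + 1) over 0 mM (y axis) for the 350 sequences whose mean reached 10, at 2, 4 and 8 mM (x axis), as 6 miR481 sequences, 21 other sequences of 24 nt and 323 of other lengths; dotted lines mark 2-fold. The 6 miR481 points lie above the upper dotted line at 2 and 4 mM, and 5 of them at 8 mM.

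Other sequences of 24 nt had positive median log2 ratios too, smaller than those of miR481, though single ones reached the range of miR481. Of the 45 that are not miR481, 21 passed the filter on low levels. Some passed through their treated levels, such as gma-MIR4995-p3_2ss16GC21TC with 7.46 normalized read counts at 0 mM. The filtered counts and medians of this class are therefore no evidence of a direction. Among the 21, 12 were at least 2-fold higher and 0 lower at 2 mM, 12 and 0 at 4 mM, and 7 and 2 at 8 mM, with medians of 1.45, 1.35 and 0.47. With equal table totals 2 were lower at 2 mM. Without the filter 24, 27 and 14 of the 45 were higher and 2, 2 and 4 lower. Like miR481, the larger part of them, 13 of 21, had their highest level at 4 mM, as did 89 of all 350 sequences. Between 8 and 4 mM 8 of the 21 were at least 2-fold lower and 0 higher, where 7.43% of all sequences were lower. Of the 6 with Populus names among the 21, 5 were lower, the same count as for the 6 miR481 sequences. Of the 8 that are predicted candidates of the authors, 3 were lower.

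In summed level the other 24 nt sequences were led by forms of miR6300, a family of the fragment list above. With those left out, 43 sequences had 612, 1443, 1656 and 979 normalized read counts at 0, 2, 4 and 8 mM. They were 2.36-fold (2.12 to 2.63), 2.71-fold (2.44 to 3.01) and 1.60-fold (1.43 to 1.79) higher at 2, 4 and 8 mM, below the intervals of the 24 nt miR481 forms. Leaving out miR6300 was chosen after the data were seen and decides the direction at 2 and 8 mM. With it, the sum of all 45 was 1.26-fold lower at 2 mM (1.21 to 1.31), 1.56-fold higher at 4 mM (1.51 to 1.62) and 1.16-fold lower at 8 mM (1.12 to 1.21). Within each library, miR481 made up 7.58% of the 24 nt reads other than miR6300 without the acid (5.55 to 10.3). It made up 29.1% (27.2 to 31.2), 31.5% (29.8 to 33.2) and 19.6% (17.7 to 21.9) of them at 2, 4 and 8 mM. These shares need no scaling but depend on leaving out miR6300, and the share at 0 mM lies below the intervals of the other doses. Of all 24 nt reads, miR6300 included, miR481 held 37 of 4259 at 0 mM and 602 of 5218 at 2 mM. At 4 and 8 mM it held 913 of 11640.5 and 268.5 of 5803, so its part was then largest at 2 mM.

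**Figure D4:**
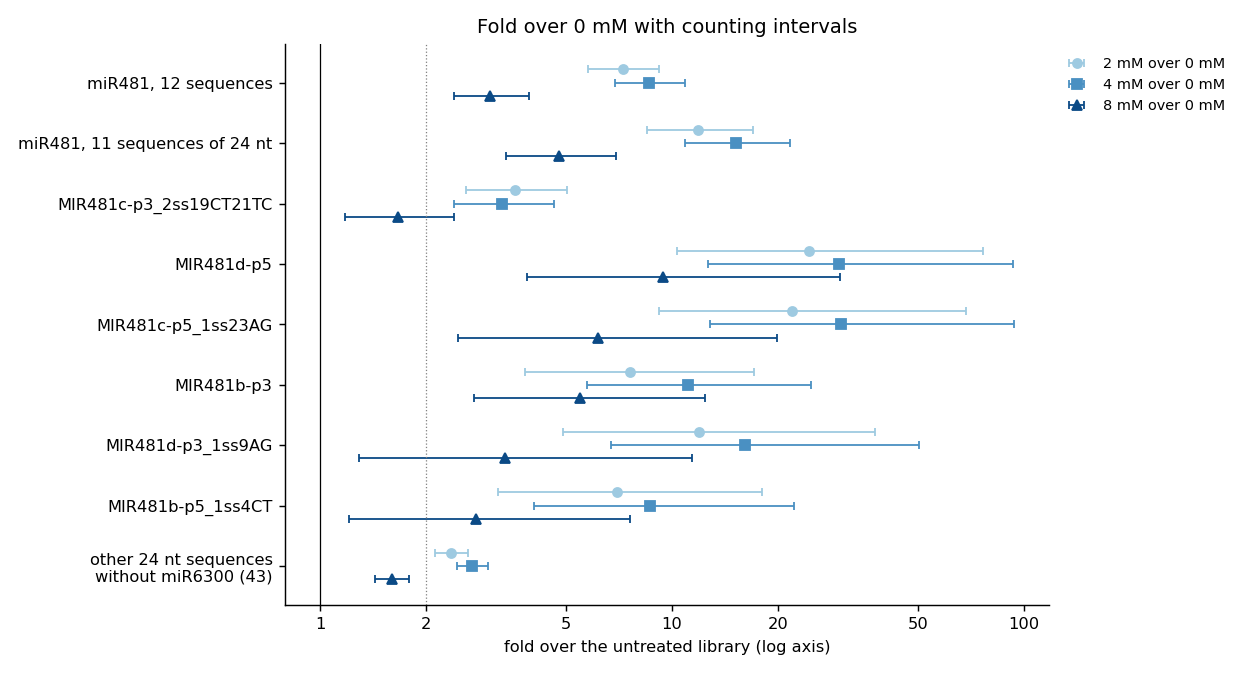
Fold over the untreated library (x axis, log scale) at 2, 4 and 8 mM for miR481 as a whole, its 24 nt sequences, its 6 more abundant sequences and, in the last row, 43 other 24 nt sequences, with exact 95% intervals for counting error; lines mark 1-fold and 2-fold. The 24 nt miR481 forms together reach 15.2-fold at 4 mM, the 21 nt form 3.30-fold and the other 24 nt sequences 2.71-fold.

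Poplar families with neighbouring numbers gave smaller family folds. Of miR472 to miR477, miR479, miR480 and miR482, the families miR474, miR479 and miR480 had no value here. In the other 6, fold over 0 mM at 4 mM ran between 0.719 for miR473 and 2.09 for miR472, against 8.58 for miR481. Of their 39 sequences 32 passed the filter, with 3 higher and 4 lower at 2 mM, 6 and 4 at 4 mM, and 3 and 4 at 8 mM, and medians of 0.16, 0.29 and 0.19. A single sequence among them, ptc-MIR475c-p5, named after its values were seen, had log2 ratios of 3.13, 3.73 and 3.70, above the medians of the 6 miR481 sequences. Equal table totals lower these by the shifts given above.

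A few other sequences resembled miR481 in their letters. The 3′ part of ptc-MIR481d-p5 holds TGGTATCAGAGCC, and the opposite strand of that stretch stands in 4 sequences named miR1511, 1 of them also miR5139. This stretch is known in plants as the complement of the 3′ end of the initiator methionine transfer RNA, where reverse transcription of many long terminal repeat retrotransposons is primed. On either strand it occurred in 5 of the 529 sequences (0.945%), and among the 56 sequences of 24 nt in ptc-MIR481d-p5 alone. ptc-MIR6470-p3_1ss21AG shares 10 bases with ptc-MIR481b-p5_1ss4CT at its 5′ end and 10 with ptc-MIR481d-p5 at its 3′ end. In the lines below the capitals mark the run shared with ptc-MIR481d-p5, on the opposite strand for gma-miR1511_R-2:

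ptc-MIR6470-p3_1ss21AG: tgagatggtttTTTGACATGG

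ptc-MIR481d-p5, run shared with ptc-MIR6470-p3_1ss21AG: ttcTTTGACATGGtatcagagcct

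ptc-MIR481d-p5, run shared with gma-miR1511_R-2: ttctttgacaTGGTATCAGAGCCT

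gma-miR1511_R-2: aaccAGGCTCTGATACCA

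These relatives did not follow 1 pattern. ptc-MIR6470-p3_1ss21AG had 0, 18, 13 and 6 reads at 0, 2, 4 and 8 mM, at least 4.36-fold higher at 2 mM than at 0 mM with 3 counts in place of 0. Counting error allows less, and the exact interval of that ratio starts at 3.20. gma-miR1511_R-2 stood at 385, 62.1, 33.3 and 52.6 normalized read counts. The 4 miR1511 sequences together were 6.26-fold (4.79 to 8.32), 12.2-fold (8.79 to 17.5) and 7.38-fold (5.60 to 9.87) lower at 2, 4 and 8 mM. Their sum was thus lowest at 4 mM. ptc-MIR481d-p5 on the other strand had its highest listed level there, which counting error does not separate from that at 2 mM. Of the 300.5 untreated reads of the miR1511 sum, gma-miR1511_R-2 alone held 284. The sequence listed as lja-miR171d-3p and mtr-miR171e-5p, which shares 10 bases with ptc-MIR481a-p5_2ss15GA23TC on the opposite strand, had 0, 14, 0 and 0 reads at 0, 2, 4 and 8 mM. A match of letters is a description and shows neither an origin nor pairing.

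In the shape of their levels over the 4 libraries, miR8005, miR7838 and miR6470 lay nearest to miR481 among 87 other family totals. The measure was the distance between log2(value + 1) profiles centred on their means, and it came to 1.03, 1.06 and 1.18. miR8005 had 17.6, 132, 79.1 and 74.4 normalized read counts at 0, 2, 4 and 8 mM, miR7838 at 10.8, 36.5, 40.0 and 15.2 and miR6470 at 6.78, 24.6, 20.8 and 9.80. The 3 families were lowest at 0 mM, as their choice by likeness to miR481 favours. Among 344 single sequences the nearest were PC-5p-25553_269 of 23 nt, gma-MIR4995-p3_2ss16GC21TC of 24 nt and ama-miR396-5p_R+1_1ss19CT of 22 nt, at 0.527, 0.608 and 0.659.

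PC-5p-25553_269, a predicted candidate of the authors, had 24.4, 168, 196 and 109 normalized read counts at 0, 2, 4 and 8 mM. Its order of doses was that of miR481, which its choice by likeness also favours. For miR478 the nearest family totals were miR828, miR2655 and miR3627, at 1.53, 1.58 and 1.74, and the nearest sequences PC-3p-79202_59, ptc-MIR399g-p5 and ptc-MIR164c-p3, at 1.11, 1.28 and 1.28. With at most 7 reads of miR478 in a library, that order carries little weight.

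Part of the way down, the authors' deposited table has a line of text that marks the rows after it as not significant. Of the 14 sequences 9 stood above that line with every row, both miR478 forms included, and 5 did not. Those 5 are the sequences listed in 2 rows each. The share above the line among all 529 sequences is not given here, so the split is no result about these families. The test behind that line is not named. The authors' deposited table calls 6 of the 14 middle and 8 low in expression, and the 6 are those that passed the filter here.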

How the data were processed

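Small RNA of poplar leaves was measured in 4 libraries, 1 per dose of para-hydroxybenzoic acid, each of mixed RNA per the labels' protocols. The submitters' processing notes name bcl2fastq 1.8.4. For mapper, counter, build and annotation the sources used here give no name. The raw columns hold estimated counts as the authors deposited them, many of them fractions. The deposited normalized columns are a linear signal, namely the raw counts times 1.36, 0.986, 0.833 and 0.891 at 0, 2, 4 and 8 mM.

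Where a sequence stood in several rows these were summed, which concerned 5 of the 14 sequences. Of the 56 member values 11 were not whole within 0.002 after summing, so a row may hold shared reads or several read forms. Raw counts were rounded for intervals. Ratios are plain ratios of normalized values. Counts past 2-fold used log2(value + 1) and a mean of at least 10. No p-value was computed, as every dose has 1 library. Likeness between sequences was a shared run of at least 10 bases.

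The members and lists were chosen with earlier results of these data known. The comparisons of 4 with 2 mM and of 8 with 4 mM, the 24 nt total and the sum without miR6300 were added after the data were seen. Named beside the members were, by rule, the 3 families and 3 sequences nearest in profile. The neighbouring-number and fragment-like lists are given in full in the report, and the relatives in sequence were named after their values were seen. Scripts ran on Python 3.11.15, numpy 2.4.6, pandas 2.3.3, scipy 1.17.1 and matplotlib 3.10.9, and the procedure was tested on simulated data.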

Additional observations from a re-analysis of the deposited data

How the results depend on the processing

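No paired analysis was possible because each dose has 1 library. Of 159 values recomputed under other settings, 136 stayed within the counting interval of the reported ratio or, for counts of sequences, within 1.5 times the reported count, and 23 did not. A ratio whose interval holds 1 may still change sign, as miR478 at 2 mM did, with a log2 ratio of -0.44 under equal table totals, against 0.03. Of the 72 for the 6 more abundant miR481 sequences 1 moved. Equal table totals put the miR481 log2 ratios to 0 mM at 2.40, 2.53 and 1.21 at 2, 4 and 8 mM, against 2.86, 3.10 and 1.61. On the authors' scale, the 24 nt sequences alone gave 3.56, 3.92 and 2.25. Median-of-ratios factors, a single row per sequence and a pseudocount of 5 left the miR481 ratios within their counting intervals. Over all sequences, 73, 66 and 52 were at least 2-fold higher and 83, 90 and 75 lower at 2, 4 and 8 mM. Without a filter on low levels 137, 137 and 115 were higher, with 128 lower at 2 mM and 122 at 8 mM. Equal table totals gave 43 higher at 2 mM and 36 at 4 mM. Of the other 24 nt sequences, 24, 27 and 14 were higher and 2, 2 and 4 lower without the filter, against 12, 12 and 7 higher and 0, 0 and 2 lower with it. Equal table totals gave 2 lower at 2 mM, and a pseudocount of 5 gave 4 higher and 0 lower at 8 mM. More sequences are counted without the filter, and equal totals subtract a constant; otherwise the cause was not tested. Depth limits miR478 most, at no more than 7 reads in a library, and the miR481 total over 0 mM rests on 83 untreated reads, its single sequences on 46 or fewer.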
